A study of Caenorhabditis elegans with 2 samples.

Results

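The genes described here encode 10 intracellular components of Wnt signalling in C. elegans, and every BLMP-1 binding summit inside them or up to 5 kb upstream was collected. They are the Dishevelled genes dsh-1, dsh-2 and mig-5, the APC-related gene apr-1, the Axin-like gene pry-1, the β-catenin genes bar-1, wrm-1 and sys-1, the Nemo-like kinase gene lit-1 and the TCF gene pop-1. They were chosen by name from 19973 protein-coding genes of the nuclear chromosomes, at a time when earlier results of these data were known. BLMP-1, a zinc-finger factor related to mammalian Blimp-1, was profiled by chromatin immunoprecipitation and sequencing in whole first-stage (L1) larvae of pooled males and females. Both biological replicates came from strain OP109, which carries unc-119(ed3) III and wgIs109, an insertion for eGFP-tagged blmp-1. There was 1 group, with no other genotype or condition. The labels give the antibody as blmp-1 and the target as the eGFP fusion. The sources used here do not give the promoter of the transgene, and whole larvae do not show in which cells a site was bound.

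Wnt signals in this animal polarise many dividing cells. Frizzled receptors act through Dishevelled. APC and Axin proteins control the level and place of β-catenins. In the asymmetry pathway WRM-1 and the kinase LIT-1 lower nuclear POP-1, the TCF factor, while the β-catenin SYS-1 serves POP-1 as coactivator. BAR-1 acts in a more classical β-catenin route, for example in vulval precursor cells and migrating neuroblasts. In larval epidermis the asymmetry pathway sets which seam daughter stays a seam cell.

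The measurements were the authors' ce11 peak lists. The optimal list held 8751 peaks that passed their reproducibility filter, and these were the strongest 8751 of 30000 peaks called on both replicates together. The lists of replicates 1 and 2 held 27310 and 30000 peaks. These longer lists, made as input for the filter, hold background as well as peaks, so an entry outside the optimal list may be either. Each peak has a summit and a signal from the authors' caller whose scale is not given, so peaks were ranked by signal within a list, rank 1 being the strongest, and signals were not compared between lists. The optimal signals ran from 62.0 to 4255 with a median of 147. Read depth is unknown from peak lists, so no interval from counting is given, and no test was made with 1 group of 2 replicates.

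All 10 genes had at least 1 optimal summit in the gene body or 5 kb upstream, against 42.6% of all protein-coding genes by the same rule. Longer windows catch more summits: the windows of the 10 genes ran from 7.70 to 27.4 kb with a median of 10.1 kb, against a median of 7.03 kb for all genes, and among genes with windows in that same range 52.7% had a summit. The 10 windows held 26 summits, a mean of 2.6 and a median of 2 per gene, against a mean of 0.740 and a median of 0 over all genes. Per 10 kb of window this was 2.12 summits, against 0.886 in the merged windows of all genes. A single gene, lit-1, held 9 of the 26, and the other genes together held 17, or 1.78 per 10 kb. The 26 summits were of ordinary strength, with a median rank of 4043 and a median signal of 161, against 4376 and 147 over the optimal list. Of the 26, 3 were among the 300 strongest of the 8751 optimal peaks, with ranks 97 and 137 at lit-1 and 271 at pop-1.

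**Figure D1:**
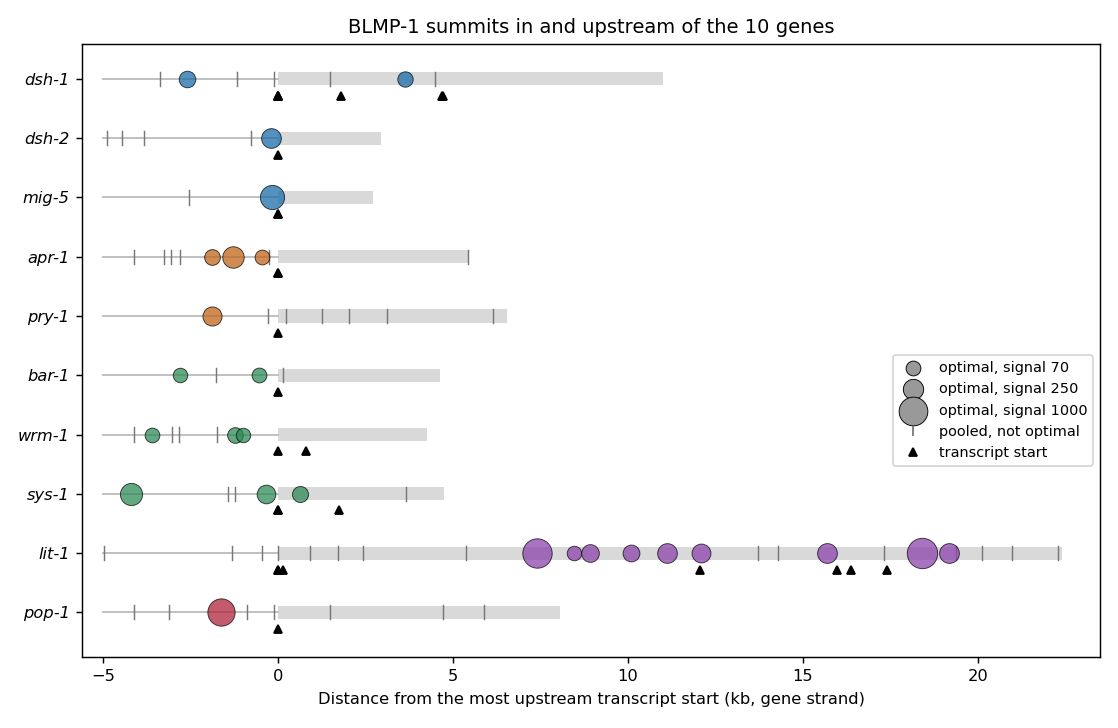
Positions of BLMP-1 summits along the 10 genes, in kb from the most upstream annotated start on the gene's strand. Grey bars are gene bodies, triangles are transcript starts, coloured circles are optimal summits whose area grows with the square root of the signal, and grey ticks are pooled summits outside the optimal list. Summits of lit-1 lie inside the gene, while those of mig-5 and dsh-2 sit next to the start and that of pop-1 lies 1630 bp upstream.

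Of the 26 optimal summits, 15 lay upstream of the gene's first start and 11 inside the gene. Between genes lay 13 and in introns 10, while 2 were in coding exons and 1 fell on an annotated small RNA inside a lit-1 intron. Over all optimal peaks 61.1% were intergenic, 24.5% intronic, 2.32% in coding exons and 6.59% in noncoding exons, the class of that small RNA. The nearest protein-coding start belonged to the gene itself for 20 summits, 9 of them at lit-1, and to a neighbour for 6. The neighbours were EGAP2.2 beside dsh-1, K04G2.7 for all 3 summits of apr-1, arf-1 beside wrm-1 and the histone gene his-68 beside sys-1. A peak list alone cannot assign such a summit to one of the genes. None of the 26 lay within 1000 bp of a tRNA, rRNA, snRNA or snoRNA gene, and few optimal summits did, 333 of 8751.

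In the narrower range from 1500 bp upstream to 500 bp downstream of any own start, 8 of the 10 genes had an optimal summit, against 27.4% of all genes. The exceptions were pry-1 and pop-1, whose only optimal summits lay 1882 and 1630 bp upstream, just past that limit. The Dishevelled genes, by contrast, each had a summit inside it.

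Each Dishevelled gene was bound, and the strongest of their sites lay at mig-5. Dishevelled proteins pass the signal on from Frizzled receptors, and DSH-2 and MIG-5 act together in several asymmetric divisions. The mig-5 peak (WBGene00003241, chrII:8185098-8185305) had a signal of 504 and rank 707 in the pooled list. The same site ranked 810 in replicate 1 (signal 164) and 716 in replicate 2 (signal 334), so both replicates placed it at nearly the same level of their lists. Its summit lay 179 bp upstream of the mig-5 start, in a gap of 419 bp between mig-5 and the chaperonin gene cct-1, whose start lay 241 bp away on the other side. The site therefore fell between divergent starts and cannot be given to mig-5 alone.

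The dsh-2 peak (WBGene00001102, chrII:5081206-5081541) had a signal of 221 and rank 2679, with ranks 2810 and 2798 in replicates 1 and 2. It lay 200 bp upstream of the single dsh-2 start, inside the gap of 315 bp that separates dsh-2 from C04G6.4, a gene on the same strand. Here too the replicates gave nearly the same rank. The third gene, dsh-1 (WBGene00001101), had 2 weaker peaks. One, at chrII:5227815-5228150 (rank 5787, signal 111), lay 2599 bp upstream of the gene and ranked 5824 and 5578 in replicates 1 and 2. The other, at chrII:5221598-5221933 (rank 7335, signal 81.9), lay in an intron 1055 bp upstream of an internal start and ranked 5874 in replicate 2 but 20456 in replicate 1. The upstream dsh-1 site was thus seen alike in both lists, and the intronic one mainly in replicate 2.

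The windows of 151 bases centred on the summits of the 3 Dishevelled genes are shown because they are the sites nearest to each gene that both replicates placed among their 8751 strongest peaks. They were read from the RefSeq sequence of assembly WBcel235, which is ce11, on the gene's minus strand. The binding motif known for BLMP-1 was searched as AAAGTGAAA, or TTTCACTTT when it lies on the opposite strand, with at most 1 mismatch, and matches are in capitals.
mig-5, chrII:8185127-8185277: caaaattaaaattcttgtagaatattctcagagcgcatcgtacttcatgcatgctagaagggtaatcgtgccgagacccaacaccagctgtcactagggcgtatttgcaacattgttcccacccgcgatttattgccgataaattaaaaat
dsh-2, chrII:5081299-5081449: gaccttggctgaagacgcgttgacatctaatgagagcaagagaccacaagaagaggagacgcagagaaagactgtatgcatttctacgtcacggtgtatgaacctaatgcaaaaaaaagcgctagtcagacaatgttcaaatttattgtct
dsh-1, chrII:5227908-5228058: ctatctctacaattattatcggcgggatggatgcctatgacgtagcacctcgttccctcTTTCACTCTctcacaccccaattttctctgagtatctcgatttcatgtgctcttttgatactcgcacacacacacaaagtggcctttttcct
The mig-5 and dsh-2 windows held no match. The dsh-1 window held 1 match with 1 mismatch on the opposite strand, centred 12 bases from the summit.

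The scaffold genes apr-1 and pry-1 differed in how clearly a site belonged to them. APR-1, related to APC, takes part in the unequal spread of WRM-1 between daughter cells, and PRY-1, an Axin, holds back BAR-1 signalling. Upstream of apr-1 (WBGene00000156, chromosome I) there were 3 optimal peaks, at 475, 1304 and 1880 bp from the start. The strongest (8048631 to 8048844, rank 1573, signal 312) ranked 1781 in replicate 1 and 1580 in replicate 2. The peak nearest the start (8049394 to 8049729, rank 8145, signal 69.9) ranked 7362 and 8691. The farthest (8047989 to 8048324, rank 6846, signal 90.1) ranked 12099 in replicate 1 and 5790 in replicate 2, and was thus outside the 8751 strongest of replicate 1. The apr-1 start is separated from the divergent gene K04G2.7 by 696 bp, and the 2 farther summits lay inside K04G2.7, in an intron and in a coding exon. With the upstream window ended at K04G2.7, 1 of the 3 summits remained.

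The single pry-1 peak (WBGene00004202, chromosome I 14181074 to 14181409) had a signal of 195 and rank 3179. It ranked 3252 in replicate 1 and 3223 in replicate 2. It stood 1882 bp upstream of the only pry-1 start, and no window of another protein-coding gene held it. The remaining 6 pooled summits in the pry-1 window were weak, the best at rank 15641, so the gene had 1 isolated site in a 3234 bp gap.

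The β-catenin genes bar-1 and wrm-1 had the weakest sites of the 10 genes. BAR-1 works with POP-1 as an activator in the canonical route, and WRM-1 binds LIT-1 and acts on POP-1. The bar-1 peaks (WBGene00000238) were at chrX:7171017-7171352 (rank 8068, signal 70.9), 560 bp upstream of the start, and at chrX:7173276-7173611 (rank 8508, signal 64.9), 2819 bp upstream. The nearer one ranked 10366 in replicate 1 and 7761 in replicate 2, and the farther one 8643 and 9225. Each was therefore among the 8751 strongest of one replicate only, replicate 2 for the nearer and replicate 1 for the farther.

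At wrm-1 (WBGene00006943) 3 peaks lay upstream of the first start. The strongest, at chrIII:5721458-5721793 (rank 6919, signal 89.0, 1224 bp upstream), ranked 4596 in replicate 1 and 8976 in replicate 2. The peak at chrIII:5719084-5719419 (rank 8238, signal 68.6, 3598 bp upstream) ranked 11764 and 7557. The third, at chrIII:5721681-5722016 (rank 8690, signal 62.7, 1001 bp upstream), overlapped the strongest one and ranked 9614 in replicate 1, while replicate 2 had no summit within 100 bp. Replicate 2 instead had a summit 222 bp nearer to the gene, at rank 6830. No bar-1 or wrm-1 peak was among the 8751 strongest of both replicates, so both genes lost all their summits under that condition. The rank 8690 peak was also the weakest optimal peak of all 10 genes, and the strongest pooled peak outside the optimal list, at lit-1, had rank 8981.

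Windows of the strongest peak of both genes are shown because these weak sites are the best that either gene had. The wrm-1 window is on the plus strand and the bar-1 window on the minus strand, as the genes are.
wrm-1, chrIII:5721551-5721701: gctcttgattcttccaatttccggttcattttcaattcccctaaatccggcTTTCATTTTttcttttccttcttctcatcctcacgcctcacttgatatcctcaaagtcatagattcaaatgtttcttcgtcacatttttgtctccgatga
bar-1, chrX:7171110-7171260: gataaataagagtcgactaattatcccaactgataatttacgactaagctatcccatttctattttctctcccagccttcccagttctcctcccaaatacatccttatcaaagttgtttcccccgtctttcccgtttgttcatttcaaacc
The wrm-1 window held 1 match with 1 mismatch on the opposite strand, centred 20 bases from the summit, and the bar-1 window held none. The weaker bar-1 peak, at rank 8508, held 1 match with 1 mismatch at 52 bases from its summit.

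Unlike bar-1 and wrm-1, sys-1, which encodes the coactivator of POP-1, had sites that both replicates shared. Its 3 optimal peaks (WBGene00006379, chromosome I) were all among the 8751 strongest of each list. The peak 343 bp upstream of the first start (9984969 to 9985304, rank 3563, signal 178) ranked 2901 in replicate 1 and 4547 in replicate 2. An intronic peak (9984006 to 9984341, rank 6509, signal 96.5), 612 bp downstream of the nearest start, ranked 4365 and 8492. The strongest (9988918 to 9989103, rank 1287, signal 354) ranked 1673 and 1206, but lay 4209 bp upstream. It was 129 bp from the start of his-68, 240 bp from that of his-67 and 799 bp from a start of the Argonaute gene alg-5. Those starts were far closer to it than any of sys-1. With the upstream window ended at his-67, 2 of the 3 sys-1 summits remained.

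The kinase gene lit-1 was bound at more places than any other of the 10 genes. LIT-1 is a Nemo-like kinase that, with WRM-1, phosphorylates POP-1 and lowers its nuclear level. All 9 optimal summits (WBGene00003048, chromosome III) lay inside the gene, over a stretch of 11.8 kb with gaps of 473 to 3607 bp between neighbours. Only 29 protein-coding genes (0.145%) had 9 or more summits in their windows, and the lit-1 window of 27.4 kb was the longest of the 10. Per 10 kb it held 3.28 summits, close to the 3.24 of wrm-1 and the 3.08 of sys-1. The next longest windows held fewer: 1.25 at dsh-1 (16.0 kb), 0.765 at pop-1 (13.1 kb) and 0.867 at pry-1 (11.5 kb). Counting only peaks matched in both replicates, lit-1 kept 5 summits, sys-1 3 and wrm-1 0, so the likeness to wrm-1 did not hold there. Any part of window length in the lit-1 count was not tested.

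Transcripts of lit-1 begin at 7 annotated starts: 3 lie within 150 bp at the upstream end, and the others 12054, 15974, 16368 and 17405 bp further down. The first optimal summit appeared 7388 bp inside the gene, and no optimal summit lay within the 5 kb upstream. The most upstream starts thus had none nearby. Of the 9, 3 summits were near an internal start by the narrow rule. These lay 930 bp upstream of the start at 12054 bp, 29 bp downstream of the same start and 284 bp upstream of the start at 15974 bp.

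The strongest lit-1 peak, at chrIII:13720226-13720546 (rank 97, signal 1252), had rank 621 in replicate 1 (signal 189) and rank 49 in replicate 2 (signal 1073). Its summit was in an intron shared by all 7 transcripts, 984 bp downstream of the last start. The next, at chrIII:13709103-13709559 (rank 137, signal 1094), ranked 248 in replicate 1 (signal 293) and 112 in replicate 2 (signal 801). It was intronic in 3 transcripts, upstream of the other 4, and 4666 bp from the nearest start. Both strong sites, 11 kb apart, were therefore in introns and high in both replicates, and each ranked higher in replicate 2.

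Of the 7 weaker lit-1 peaks, 3 more were shared by both replicates. The peak at chrIII:13717513-13717848 (rank 2634, signal 224) ranked 3751 and 2508, that at chrIII:13721079-13721169 (rank 2645, signal 223) ranked 4453 and 2028, and that at chrIII:13710898-13710986 (rank 4523, signal 143) ranked 4196 and 4434 in replicates 1 and 2. The others had support from one replicate. The peak at chrIII:13713089-13713173 (rank 2709, signal 219) ranked 1681 in replicate 2 and had no replicate 1 summit within 594 bp. The peak at the internal start, chrIII:13713906-13714241 (rank 3377, signal 186, in a coding exon), ranked 2212 in replicate 2 and 12277 in replicate 1. The peak at chrIII:13711915-13712250 (rank 5516, signal 117) lay on the small RNA gene 21ur-14211 and ranked 4515 in replicate 2 and 9828 in replicate 1. The reverse held at chrIII:13710271-13710606 (rank 8463, signal 65.4), which ranked 3828 in replicate 1 and 17903 in replicate 2. In all, 7 of the 9 lit-1 sites ranked higher in replicate 2, counting the site without a replicate 1 match. The same share over all optimal peaks is not given here.

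**Figure D2:**
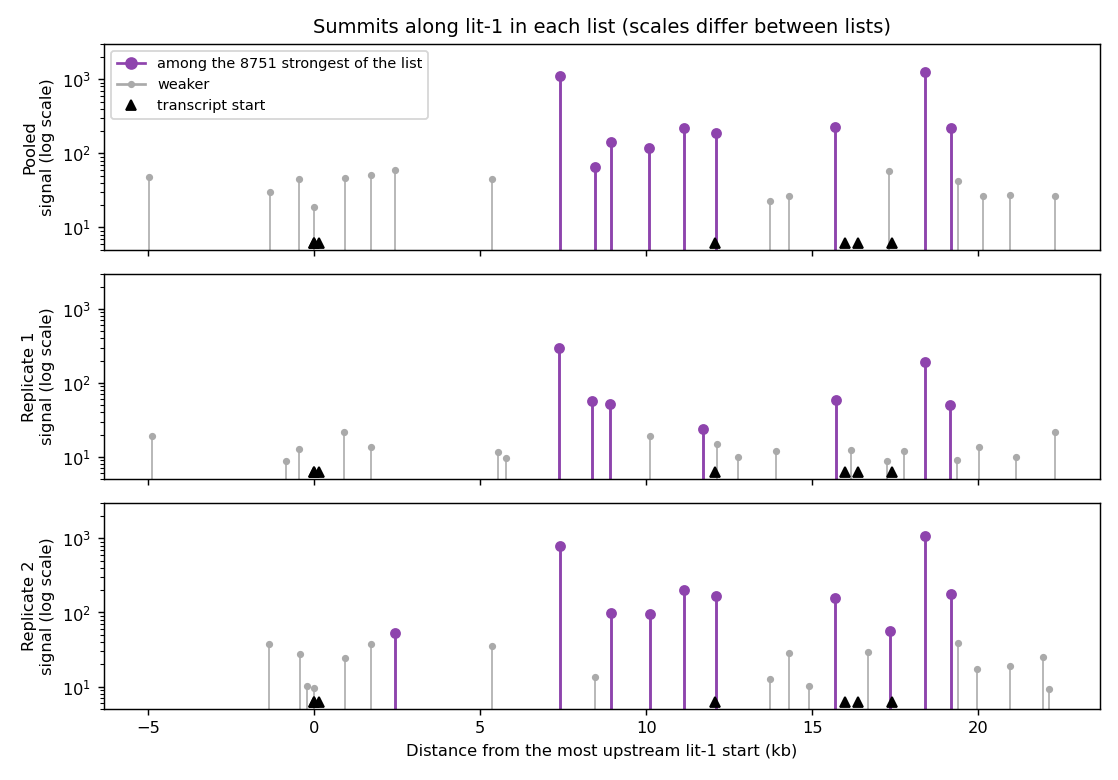
Signal of each summit (log scale) along lit-1, in kb from its most upstream start, in the pooled list and in replicates 1 and 2, whose scales differ. Purple stems are among the 8751 strongest peaks of their list, grey stems are weaker, and triangles mark transcript starts. The tall stems at 7388 and 18389 bp appear in all 3 lists. Between them, the summits at 8921 and 15690 bp are purple in all 3 lists, and the other 4 optimal ones are purple in 1 replicate only.

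The windows of 3 lit-1 peaks are shown, on the plus strand: the 2 strongest, and the one that held the only exact motif among the 26 summits.
lit-1 rank 97, chrIII:13720305-13720455: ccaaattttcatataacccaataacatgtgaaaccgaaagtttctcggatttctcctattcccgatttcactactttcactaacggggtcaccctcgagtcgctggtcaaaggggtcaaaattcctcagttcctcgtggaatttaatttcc
lit-1 rank 137, chrIII:13709304-13709454: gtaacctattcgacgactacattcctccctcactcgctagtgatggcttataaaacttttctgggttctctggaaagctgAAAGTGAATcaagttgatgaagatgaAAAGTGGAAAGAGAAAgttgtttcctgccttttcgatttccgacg
lit-1 rank 5516, chrIII:13712008-13712158: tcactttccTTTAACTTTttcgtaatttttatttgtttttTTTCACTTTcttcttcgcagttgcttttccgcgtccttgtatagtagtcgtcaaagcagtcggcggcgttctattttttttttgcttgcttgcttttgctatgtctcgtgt
The rank 97 window held no match. The rank 137 window held 3 matches with 1 mismatch each, all on the gene's strand and centred 9, 35 and 42 bases downstream of the summit, of which the last pair overlap. The rank 5516 window held an exact match 31 bases from the summit and another with 1 mismatch at 62 bases, both on the opposite strand.

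Over the 26 summits, 7 had the motif with at most 1 mismatch within 75 bp and 1 had it exactly, against 32% and 5.42% of all optimal peaks. Flanks centred 500 bp to the left and right of the same summits held it in 2 and 4 cases, against 19.2% and 19.4% of the flanks of all optimal peaks. The median rank was 5516 for the summits with a match, against 3563 for those without. Of the 3 summits among the 300 strongest peaks, those at ranks 137 and 271 had a match and that at rank 97 had none. Among the 13 that belonged to the strongest 4375 optimal peaks 3 had a match, against 36.5% of all peaks of that strength, and among the 13 weaker ones 4 did, against 27.5%. A match to letters is a description and does not show what was bound.

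The TCF gene pop-1 (WBGene00004077), whose product is the nuclear end point of the pathway, had 1 optimal peak, and it was strong. The peak at chromosome I 2831795 to 2832085 had a signal of 816 and rank 271. It ranked 169 in replicate 1 (signal 337) and 373 in replicate 2 (signal 481), the highest rank of any of the 10 genes' sites in replicate 1. It lay 1630 bp upstream of the only pop-1 start, where no other protein-coding gene's window reached. The next protein-coding gene upstream was 15547 bp away. The window of the peak held 2 matches with 1 mismatch, centred 1 and 31 bases from the summit. At the start itself, 114 bp upstream, there was a weak pooled summit at rank 10678, which replicate 2 ranked 8937 and replicate 1 lacked. That weak summit fell on a noncoding exon annotated to W10C8.14. Replicate 2 alone had a further summit among its 8751 strongest, 3163 bp upstream at rank 7377. Hence the only pop-1 site among the 8751 strongest of both replicates was the one at 1630 bp. Pooled summits 876 and 4111 bp upstream (ranks 11866 and 14217) also had partners in both replicate lists, all of them weaker than that.

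Support from both replicates was more frequent among the stronger sites. Of the 26 summits, 15 matched a summit within 100 bp among the 8751 strongest of both replicates, against 75.2% of all optimal peaks. A further 7 were matched by replicate 2 alone and 3 by replicate 1 alone, against 16.5% and 7.29% of all optimal peaks. The remaining 1 had no match that strong, against 1.01% of all optimal peaks. Of the 13 among the strongest 4375 optimal peaks, 11 were matched in both, against 94.7% of all peaks of that strength, and both exceptions were at lit-1. Of the 13 weaker ones 4 were, against 55.8%. By gene, 8 of 10 had at least 1 summit with support from both, against 35.7% of all genes, and bar-1 and wrm-1 had none. Replicate 2 ranked 17 of the 26 sites higher and replicate 1 ranked 9 higher, a site without a match in one list being counted for the other. No such share over all optimal peaks is given here, so the lean cannot be called particular to these genes.

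**Figure D3:**
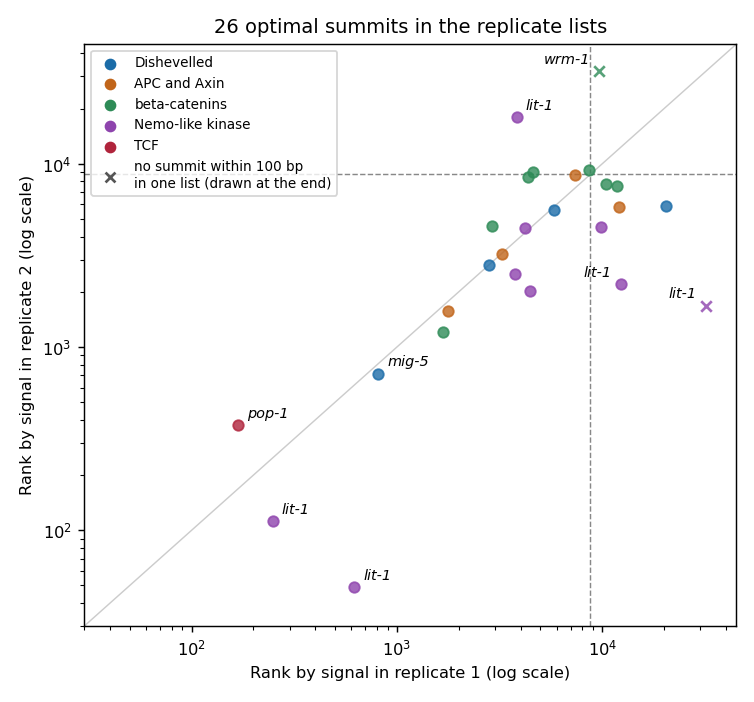
Rank of the 26 optimal summits in replicate 1 (x axis) and replicate 2 (y axis), both on log scales, coloured by role. Dashed lines mark rank 8751, and crosses are summits with no partner within 100 bp in one list, drawn at the end of that axis. The sites at mig-5, dsh-2 and pry-1 lie close to the diagonal, while several lit-1 sites lie below it, with a higher rank in replicate 2.

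Below the optimal list the 10 windows held 53 more pooled summits. Both replicate lists had a summit within 100 bp of 15 of these, replicate 1 alone of 10, replicate 2 alone of 23, and 5 had no such partner. The strongest of them at each gene ran from rank 8981 at lit-1 and 8983 at pop-1 to 15950 at bar-1 and 16038 at mig-5. None was among the 8751 strongest of both replicates, and 3 were among those of one. The first lit-1 start had pooled summits at 6 and 451 bp upstream, at ranks 20637 and 10489, both well outside the optimal list.

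Other genes of the pathway were listed by role, and each list is described by its counts and its strongest sites. Among the 5 Wnt ligand genes only lin-44 had an optimal summit (rank 8291, signal 67.9, 1095 bp upstream), and mom-2, egl-20, cwn-1 and cwn-2 had none. Among 6 receptor genes 4 had one. They were led by the Frizzled gene mom-5 (rank 1758), whose summit lay 3450 bp from its start and nearest to algn-10, by the Ryk gene lin-18 (rank 4489, 103 bp upstream) and by the Frizzled gene lin-17 (rank 7543), whose summit lay 3580 bp from its start and nearest to F32B5.1. The Frizzled gene cfz-2 and the Ror gene cam-1 had none. All 3 genes for Wnt secretion had a summit, but only that of vps-35 (rank 3166, 141 bp upstream) was near the gene's own start, and replicate 1 had no match for it. The best mig-14 summit (rank 2127) lay 4657 bp upstream and nearest to R06B9.5, and the mom-1 summit (rank 4045) lay in an intron and nearest to the start of cest-16. Replicate 1 had no match for the mom-1 summit either, while replicate 2 ranked it 3568.

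Of 7 other intracellular components 6 had a summit, exactly 1 each, and tap-1 had none, against 42.6% of all protein-coding genes with a summit. The casein kinase gene kin-19 led (rank 2194, 1208 bp upstream), followed by hmp-2, the β-catenin of cell junctions (rank 2800), and the other Axin-like gene axl-1 (rank 3086). The hmp-2 and axl-1 summits lay 1398 and 2459 bp upstream, nearest to the starts of K05C4.7 and sec-12. The lists have few genes, and differences between them were not tested. Per 10 kb of window the 10 genes held 2.12 summits, the other intracellular components 0.971, the secretion genes 1.26, the receptors 0.799 and the ligands 0.259. The merged windows of all genes held 0.886, near the values of the other intracellular components and the receptors.

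**Figure D4:**
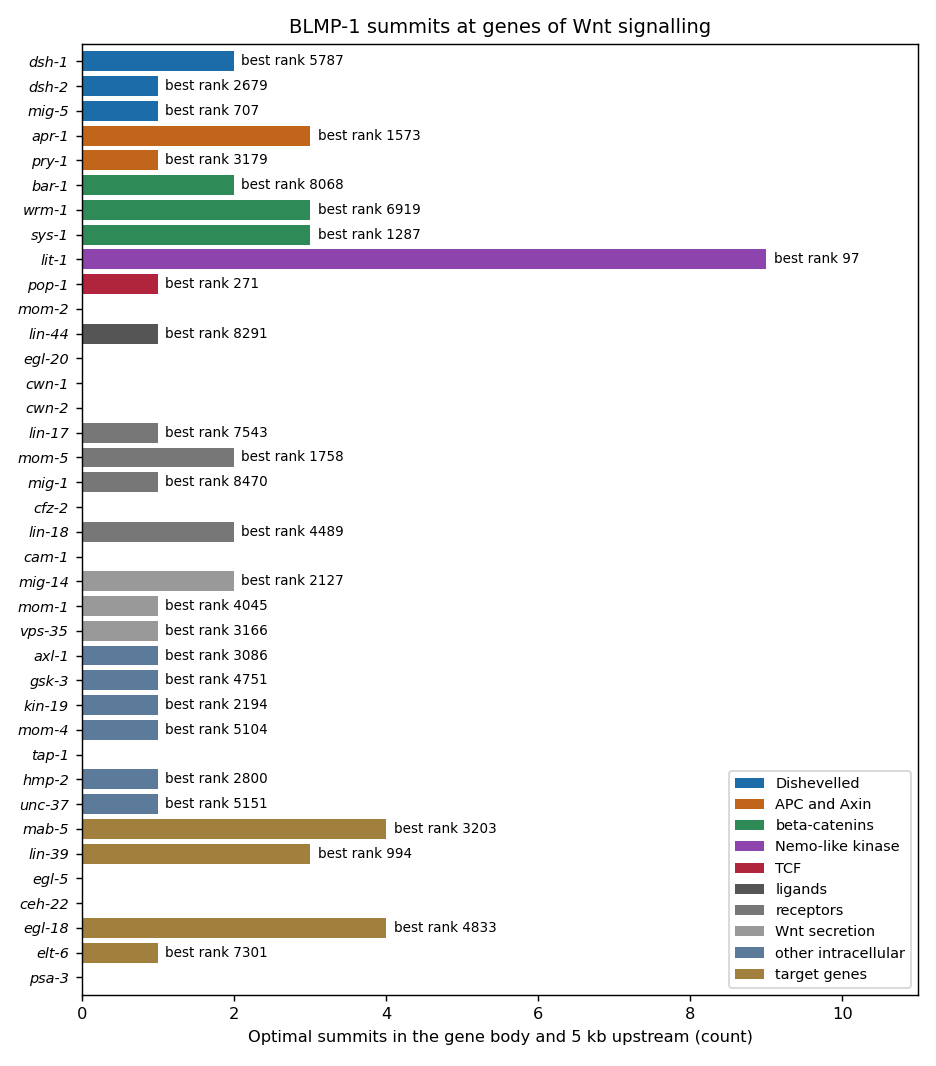
Number of optimal summits in the gene body and 5 kb upstream for 38 genes of Wnt signalling, with the rank of the strongest one beside each bar. Colours mark roles. The 10 intracellular genes at the top have 1 to 9 summits each, and 4 of the 5 ligand genes have none. Of all protein-coding genes 42.6% have at least 1.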

How the data were processed

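Peaks were called by the authors on each replicate and on both together, against a control, per the deposited listings of the files, and filtered them by irreproducible discovery rate into the optimal list. The deposited signal is the authors' own value per peak. The sources used here name no aligner, caller, threshold or read depth. Only lists on ce11 were used. The ce10 lists were not used, since builds are not mixed.

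Summits were read as start plus offset and given 1-based. Gene models were those of Ensembl release 115 on WBcel235, and bases came from the RefSeq genome of that assembly. A gene's window ran from 5 kb upstream of its most upstream start to its end. Replicate summits were matched at 100 bp, and the strongest within reach was taken. The motif was searched within 75 bp of summits on both strands. Counts were described beside those over all 19973 genes or 8751 peaks, and no tests were made. The 10 genes and the lists were chosen with earlier results of these data known. All 10 genes are named, with the genes of the 3 strongest peaks of each other list. The counting code was checked on made-up summits. Python 3.11.15 and numpy 2.4.6 were used.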

Additional observations from a re-analysis of the deposited data

How the results depend on the processing

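All 10 genes kept a summit without replicate 1 (42.8% of all genes) or replicate 2 (42.5%), using the other's 8751 strongest peaks, without peaks near small RNA genes (41.2%), with 2 kb upstream (31.9%), with the upstream window ended at a neighbour (29.9%) and with all pooled peaks (67.1%). There were 9 with the nearest start only (24.6%), where apr-1 dropped out, 8 with peaks matched in both replicates (35.7%) and 7 with the strongest 4375 optimal peaks (26.2%). The count of 26 summits was 13 with the strongest 4375, 15 with peaks matched in both replicates, 79 with all pooled peaks and 13 near starts only, and ran from 19 to 26 with a replicate left out. The median of 2 per gene was 1 under the strongest 4375, matched peaks, 2 kb upstream, starts only and nearest start, and 7 with all pooled peaks. It ran from 1 to 2 with a replicate left out. Genes with a summit near a start numbered 5 within 500 bp of a start (19.5% of all genes) and 5 with the strongest 4375 (15.3%), in place of 8, and 8 without replicate 1 (27.9%) and 6 without replicate 2 (27%). With any peak of the replicate lists 24 summits were matched in both, in place of 15, against 90.4% of all optimal peaks, a share near theirs. The motif count of 7 was 1 for exact matches and 2 and 4 in the left and right flanks. Of 100 counts for single genes under these settings 67 stayed within 1.5 times the main count. No paired analysis was possible because the series has 1 group. Peak lists carry no depth, which limits every statement on a missing summit.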

Other observations

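Among 7 genes known as targets of Wnt signalling in this animal, 4 had optimal summits in the same kind of window, against 42.6% of all protein-coding genes. They held 12 in all, or 1.38 per 10 kb over the 7 windows, against 0.886 in the merged windows of all genes. The Hox gene lin-39 had 3, the strongest (rank 994, signal 415) 77 bp downstream of a start, with ranks 1690 and 838 in replicates 1 and 2. The Hox gene mab-5 had 4, led by an intronic peak at rank 3203 (replicate ranks 2301 and 3966), and the seam cell GATA factor gene egl-18 had 4, led by an intronic peak at rank 4833 (6258 and 4490). Its neighbour elt-6 had 1, at rank 7301, which lay inside egl-18 and is counted for both. Replicate 1 had no match for that summit, while replicate 2 ranked it 7451. The targets egl-5, ceh-22 and psa-3 had none. These lists were made with earlier results known, and no difference between lists was tested.

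Genes with more optimal summits than lit-1 included egl-27 with 18, T28B11.1 with 16 and cwf-19L2 and daf-16 with 13 each, in windows of the same definition. These genes were named after their counts were seen.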
